A study of Mus musculus with 24 samples.

Results

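Across 24 RNA-seq libraries of mouse inguinal white fat, 8 genes of chromosome 9 (Zfp949, Gsta4, Ppm1m, Srprb, Tbx18, Cyb5r4, Rpl29 and Lysmd2) and 2 processed gene copies on other chromosomes (Gm11868 and Gm13841) were described. They are 10 of the 41388 genes in the count tables, and all 10 passed the filter on low counts that left 19717 tested genes. They were chosen because they differed between FMRKO and control mice averaged over 3 conditions. Every difference of these 10 genes between the genotypes below is therefore a description, given without a test. Male mice with floxed alleles of Nr3c2 (MRflox/flox), the mineralocorticoid receptor gene, carried Cre recombinase driven by the promoter of the fat cell gene adiponectin (FMRKO, AdipoqCre+ MRflox/flox), or carried no Cre (control, MRflox/flox). Each genotype was studied under 3 conditions, chow, high-fat diet and corticosterone (the main glucocorticoid of the mouse), with 4 libraries in each of the 6 groups. The floxed alleles were shared by all groups, and the Cre transgene came only with the FMRKO genotype, so loss of the receptor, Cre itself, the transgene and sequence inherited with it cannot be told apart in any of the values below. Age, corticosterone dose and duration, dietary fat content and any vehicle group are not stated in the sources used here. Whether each library came from its own animal is not stated in the labels, so the p-values below reflect the spread between libraries, which may be technical.

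As background, genes that lie near each other on a chromosome tend to be inherited together. A processed copy arises when a messenger RNA is reverse transcribed and inserted elsewhere in the genome, which leaves a sequence without introns that is nearly identical to its parent gene. Reads from the stretch that parent and copy share then differ at few bases. Most of the 8 chromosome 9 genes have housekeeping or developmental roles: a glutathione transferase, a phosphatase, a subunit of the receptor that docks ribosomes on the endoplasmic reticulum, a cytochrome b5 reductase, a ribosomal protein and a T-box factor.

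The 2 copies were tied to their parents by sequence. Their bases are shown because, within the aligned stretch, reads of parent and copy can only be separated where these differ. Outside it the parents have exonic bases of their own. Cyb5r4 has 6736 exonic bases against 1478 in Gm11868, and Rpl29 has 796 against 483 in Gm13841. Gm11868 (ENSMUSG00000050550, GRCm38 chromosome 4, 18844202 to 18845679, minus strand) is a single exon that aligned to the coding sequence of Cyb5r4 from base 103 to base 1587, the last coding base. Over 1485 aligned columns 1455 were identical, 23 were mismatches and 7 were gaps, an identity of 98.0%. Gm13841 (ENSMUSG00000083833, chromosome 5, 115801677 to 115802159, minus strand) matched all 483 coding bases of Rpl29 with 3 differences, C72A, C300T and T423C, where the parent's base comes first and positions count from the first coding base. The stretches below are from GENCODE M21 transcripts, read 5′ to 3′, with the differing bases in capitals. The first pair covers bases 622 to 662 of Cyb5r4, and the others are centred on the 3 differences of Rpl29.
Cyb5r4, bases 622 to 662: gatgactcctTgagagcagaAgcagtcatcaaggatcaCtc
Gm11868, bases 513 to 553: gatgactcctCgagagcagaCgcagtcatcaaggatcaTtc
Rpl29, around base 72: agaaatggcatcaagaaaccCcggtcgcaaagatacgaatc
Gm13841, around base 72: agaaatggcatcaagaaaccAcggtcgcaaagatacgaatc
Rpl29, around base 300: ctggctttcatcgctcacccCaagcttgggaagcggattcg
Gm13841, around base 300: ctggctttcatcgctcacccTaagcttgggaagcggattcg
Rpl29, around base 423: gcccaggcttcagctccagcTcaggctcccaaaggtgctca
Gm13841, around base 423: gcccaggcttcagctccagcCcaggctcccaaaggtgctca
A read of the Rpl29 coding sequence that covers none of the 3 differences therefore cannot be assigned to parent or copy. How many reads this concerns depends on read length, which is not given here. The authors' setting for reads with several hits is also not known here. Counts of both copies and of Rpl29 and Cyb5r4 are uncertain to that extent.

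Zfp949 had the smallest spread between libraries relative to its difference, and the 250 bases before its start (GRCm38.p6 chr9:88547770-88548019, plus strand, from RefSeq) are shown with the 50 bases next to the start in capitals.
Zfp949 upstream: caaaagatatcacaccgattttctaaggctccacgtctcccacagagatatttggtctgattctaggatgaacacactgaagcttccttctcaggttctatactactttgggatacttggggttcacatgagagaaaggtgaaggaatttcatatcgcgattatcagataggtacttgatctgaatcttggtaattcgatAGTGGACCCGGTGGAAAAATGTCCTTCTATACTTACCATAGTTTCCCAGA
The letters AGAACA and their reverse complement TGTTCT, the core of the DNA element bound by glucocorticoid and mineralocorticoid receptors, were searched on both strands in windows of 300 bases around gene starts. They were in 0 of the 6 windows of 5 of the genes described here (Zfp949, Ppm1m, Srprb, Tbx18 and Cyb5r4) and in 6233 of all 32851 windows (19.0%). So few windows cannot be told apart from that share, and no test was made.

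Library depth was 17925109 to 40427675 counts, and the biological coefficient of variation between libraries of a group was 33.7%. Adipocyte markers were high in every library, with a mean log2 CPM (counts divided by the normalised library size) of 9.63 to 10.9 over 12 genes. Other tissues of the pad were uneven between libraries. The mean of 16 lymph node lymphocyte markers ran from 0.23 to 5.84 in chow FMRKO libraries and from 0.04 to 0.34 in chow controls, and that of 12 skeletal muscle markers reached 9.02 in chow FMRKO libraries and 1.32 in chow controls. On the high-fat diet the lymph node mean was 0.46 to 5.25 in FMRKO libraries and 1.23 to 5.77 in controls. In all, 6 libraries were rich in lymph node transcripts (chow FMRKO 1 and 3, and FMRKO 1 and 4 and control 1 and 4 of the high-fat diet) and 3 in muscle transcripts (chow FMRKO 5, high-fat diet control 3 and corticosterone control 2). Nr3c2, the targeted gene, averaged 19.2 ± 6.23 CPM in FMRKO and 23.5 ± 4.56 CPM in control fat on chow, 14.5 ± 1.35 and 20.8 ± 2.95 CPM on the high-fat diet, and 10.6 ± 2.01 and 16.7 ± 2.02 CPM with corticosterone (SD, n = 4 in each group). These counts include unfloxed exons and other cell types of the pad. In bulk tissue fewer cells of a type and less RNA per cell cannot be told apart.

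Zfp949, Gsta4, Lysmd2 and both copies were higher in FMRKO than in control fat, and Tbx18, Rpl29, Ppm1m, Srprb and Cyb5r4 were lower. Averaged over the conditions, 7 of all tested genes passed an adjusted p of 0.05 in edgeR (0.0355%), and 6 of them are described here, which follows from how they were chosen. The log2 fold changes of FMRKO against control were 1.82 ± 0.20 for Gm11868, 1.42 ± 0.20 for Gm13841, 1.24 ± 0.18 for Gsta4, 1.22 ± 0.05 for Zfp949 and 0.39 ± 0.08 for Lysmd2 (± standard error). On the lower side they were -0.59 ± 0.11 for Tbx18, -0.58 ± 0.12 for Rpl29, -0.50 ± 0.08 for Ppm1m, -0.41 ± 0.07 for Srprb and -0.29 ± 0.06 for Cyb5r4. The FMRKO and control libraries did not overlap for 6 of the 10 genes on chow (3.2% of all tested genes), for 9 on the high-fat diet (2.37%) and for 4 with corticosterone (4.92%). Without overlap in the same direction in all 3 conditions were Zfp949 and Gm11868, and 0.0203% of all tested genes, or 4 genes. The other 2 were Plod2, a lysyl hydroxylase of collagen on chromosome 9, which was lower in FMRKO fat, and Eif4a2, a translation initiation factor on chromosome 16, which was higher.

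**Figure D1:**
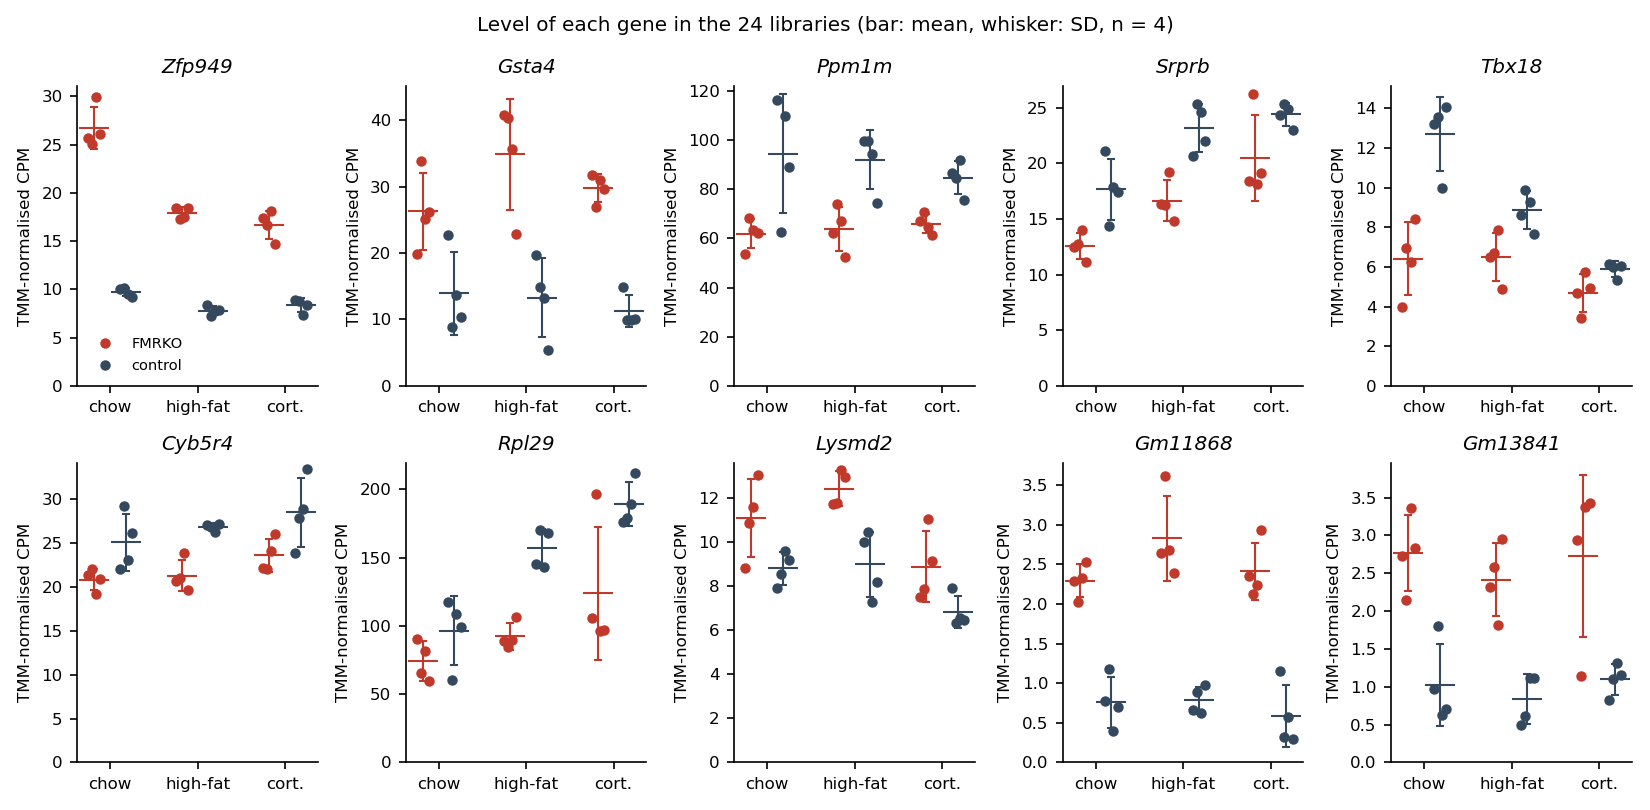
TMM-normalised CPM of the 10 genes in each of the 24 libraries, with FMRKO left of control in each condition, a bar for the mean and whiskers for the SD (n = 4). Zfp949 lay between 14.7 and 29.9 CPM in FMRKO libraries and between 7.29 and 10.1 CPM in controls, and corticosterone FMRKO 2 stood at the control level for Rpl29, Srprb and Gm13841.

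Corticosterone FMRKO 2, chow control 2 and corticosterone control 1 stood apart from their groups at some of the genes. Corticosterone FMRKO 2 had 197 CPM of Rpl29, 26.2 CPM of Srprb and 1.15 CPM of Gm13841, against 96.4 to 106, 18.1 to 19.1 and 2.95 to 3.43 CPM in the other 3 FMRKO libraries of its condition. The same library lay with its group at Zfp949 (16.7 CPM), Gsta4 (26.9 CPM) and Gm11868 (2.12 CPM), and at 70.6 CPM of Ppm1m it was the highest FMRKO library but below the 75.6 CPM of the lowest control. Chow control 2 went the other way, with 60.6 CPM of Rpl29, 62.6 CPM of Ppm1m, 14.4 CPM of Srprb and 1.81 CPM of Gm13841, against 98.9 to 117, 88.8 to 116, 17.4 to 21.1 and 0.632 to 0.964 CPM in the other 3 chow controls. It also had the most Cyb5r4 (29.2 CPM, against 22 to 26.1 CPM) and Gm11868 (1.18 CPM, against 0.395 to 0.771 CPM) of the chow controls, whereas at Zfp949 it had 10.1 CPM, with its group. Corticosterone control 1 had 14.9 CPM of Gsta4 and 7.92 CPM of Lysmd2, against 9.97 to 10.1 and 6.35 to 6.56 CPM in the other controls of its condition. It had 1.15 CPM of Gm11868 and 23.9 CPM of Cyb5r4, against 0.299 to 0.578 and 27.9 to 33.5 CPM. At the other genes it lay with its group or, for Tbx18 (6.17 CPM) and Gm13841 (0.824 CPM), at the end away from FMRKO. Markers of other cells also differed in corticosterone FMRKO 2 and chow control 2. Corticosterone FMRKO 2 had a mean log2 CPM of 2.24 over the lymph node markers, against -1.49 to 1.91 in the other FMRKO libraries and -1.54 to -1.15 in the controls of its condition, and its macrophage mean over 10 markers was 6.54, the highest with corticosterone. Chow control 2 had the lowest adipocyte mean (9.63) and the highest macrophage mean (6.95) of the 24 libraries. The part of these cells in the values was not tested.

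Zfp949, Tbx18 and Cyb5r4 start within 2 Mb of each other on chromosome 9. Zfp949 codes for a zinc finger protein (ENSMUSG00000032425, 88548020 to 88571061, plus strand) and had 25.7, 25.1, 29.9 and 26.1 CPM in chow FMRKO libraries, against 9.99, 10.1, 9.55 and 9.25 CPM in chow controls. On the high-fat diet it had 18.5, 17.3, 17.5 and 18.5 CPM in FMRKO libraries, against 8.35, 7.29, 7.71 and 7.82 CPM in controls. With corticosterone it had 17.4, 16.7, 18.1 and 14.7 CPM in FMRKO libraries, against 8.93, 8.79, 7.39 and 8.34 CPM in controls. Each FMRKO library was above every control library of the series, and the chow FMRKO libraries were above all other FMRKO libraries. Its log2 fold changes were 1.46 ± 0.08, 1.20 ± 0.08 and 1.00 ± 0.08 for chow, high-fat diet and corticosterone. The small RNA gene Gm26461 lies within the span of Zfp949 but shares none of its exons, and it had -0.30 ± 0.12.

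Tbx18 (ENSMUSG00000032419, 87702800 to 87731260, minus strand) codes for a T-box transcription factor known in mice from the development of the epicardium and ureter and from mural cells of blood vessels. It had 3.99, 6.97, 6.27 and 8.41 CPM in chow FMRKO libraries, against 13.2, 13.6, 9.99 and 14.1 CPM in chow controls. The groups did not overlap on chow. Under high-fat feeding it had 6.51, 6.71, 7.86 and 4.90 CPM in FMRKO libraries, against 8.60, 9.89, 9.28 and 7.67 CPM in controls. With corticosterone it had 4.68, 3.44, 5.76 and 4.96 CPM in FMRKO libraries, against 6.17, 6.01, 5.32 and 6.07 CPM in controls. In each of these conditions a single pair of libraries crossed, FMRKO 3 with control 4 on the high-fat diet and FMRKO 3 with control 3 with corticosterone. Its log2 fold changes were -0.99 ± 0.19, -0.45 ± 0.19 and -0.32 ± 0.19 for chow, high-fat diet and corticosterone. The rich libraries (above) included chow FMRKO 1, 3 and 5 and 0 chow controls. Leaving out the 6 libraries rich in lymph node transcripts gave -0.72 ± 0.19 on chow, and leaving out the 3 rich in muscle transcripts gave -1.13 ± 0.21.

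Cyb5r4 (ENSMUSG00000032872, 87022014 to 87077774, plus strand) codes for a cytochrome b5 reductase of the endoplasmic reticulum. It averaged 20.8 ± 1.22 CPM in FMRKO and 25.1 ± 3.25 CPM in control fat on chow, 21.3 ± 1.79 and 26.8 ± 0.403 CPM on the high-fat diet, and 23.6 ± 1.87 and 28.5 ± 3.93 CPM with corticosterone (SD, n = 4 in each group). The groups did not overlap in either diet, but on chow the highest FMRKO and the lowest control library were both at 22 CPM. The log2 fold changes were -0.27 ± 0.10, -0.33 ± 0.10 and -0.27 ± 0.10 for chow, high-fat diet and corticosterone, and the chow value was -0.15 without chow control 2.

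Its processed copy Gm11868 showed the opposite direction. It had 2.29, 2.02, 2.33 and 2.53 CPM in chow FMRKO libraries, against 0.771, 1.18, 0.395 and 0.704 CPM in chow controls. Under high-fat feeding it had 2.64, 3.61, 2.68 and 2.39 CPM in FMRKO libraries, against 0.658, 0.883, 0.626 and 0.972 CPM in controls. With corticosterone it had 2.36, 2.12, 2.23 and 2.93 CPM in FMRKO libraries, against 1.15, 0.315, 0.578 and 0.299 CPM in controls. All 12 FMRKO libraries lay above all 12 control libraries, on 48 to 84 counts in FMRKO and 7 to 39 counts in control libraries. Of the counts of Gm11868 and Cyb5r4 together, the copy made up 8.43% to 14.7% in FMRKO libraries (median 10.1%) and 0.887% to 4.59% in controls (median 2.5%). The 95% Wilson intervals of the nearest libraries were 6.49% to 10.9% in chow FMRKO 2 and 3.27% to 6.40% in corticosterone control 1, which covers counting error only. Parent and copy were both chosen for their genotype difference, so the separation of these shares is built in and is no test. The mean level of the copy in FMRKO libraries exceeded that in controls by 1.53, 2.04 and 1.82 CPM for chow, high-fat diet and corticosterone, and the difference of Cyb5r4 was -4.28, -5.53 and -4.94 CPM. These CPM are not scaled to exonic length, which is 6736 bases for Cyb5r4 and 1478 for Gm11868. Sharing of reads between the parent and the copy was not tested.

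Lysmd2 and Gsta4 start 12.92 and 10.36 Mb before Zfp949, and both were higher in FMRKO fat. Gsta4 (ENSMUSG00000032348, 78191966 to 78209348, plus strand) codes for a glutathione transferase that detoxifies 4-hydroxynonenal, a product of lipid peroxidation. It had 19.9, 33.8, 25.2 and 26.2 CPM in chow FMRKO libraries, against 22.7, 8.84, 13.7 and 10.3 CPM in chow controls. High-fat diet levels were 40.7, 40.3, 35.6 and 22.8 CPM in FMRKO libraries, against 19.6, 14.9, 13.2 and 5.35 CPM in controls. With corticosterone it had 31.7, 26.9, 31.0 and 29.6 CPM in FMRKO libraries, against 14.9, 9.97, 9.98 and 10.1 CPM in controls. Chow control 1 was the control library that reached the FMRKO range, and in the other conditions the groups did not overlap. The log2 fold changes were 0.92 ± 0.31, 1.39 ± 0.31 and 1.4 ± 0.31 for chow, high-fat diet and corticosterone. Without chow control 1 the chow value was 1.26.

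Lysmd2 (ENSMUSG00000032184, 75625732 to 75637773, plus strand) codes for a protein with a LysM domain. It averaged 11.1 ± 1.77 CPM in FMRKO and 8.82 ± 0.741 CPM in control fat on chow, 12.4 ± 0.788 and 8.99 ± 1.49 CPM on the high-fat diet, and 8.89 ± 1.60 and 6.82 ± 0.737 CPM with corticosterone (SD, n = 4 in each group). The groups overlapped on chow and with corticosterone and were separate on the high-fat diet, where the lowest FMRKO library had 11.7 CPM and the highest control library 10.5 CPM. Its log2 fold changes, 0.33 ± 0.14, 0.47 ± 0.14 and 0.38 ± 0.14, were within 1 standard error of each other.

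Srprb, Ppm1m and Rpl29 start 14.64, 17.65 and 17.88 Mb after Zfp949, and all 3 were lower in FMRKO fat. Rpl29 (ENSMUSG00000048758, 106429454 to 106431568, plus strand) codes for a protein of the large ribosomal subunit. It had 90.7, 65.8, 81.9 and 59.3 CPM in chow FMRKO libraries, against 117, 60.6, 109 and 98.9 CPM in chow controls. On the high-fat diet it had 88.8, 84.2, 89.8 and 106 CPM in FMRKO libraries, against 145, 170, 143 and 168 CPM in controls. With corticosterone it had 106, 197, 96.4 and 96.8 CPM in FMRKO libraries, against 176, 179, 190 and 212 CPM in controls. The groups were separate on the high-fat diet, and elsewhere the overlap came from chow control 2 and corticosterone FMRKO 2. Its log2 fold changes were -0.37 ± 0.21, -0.76 ± 0.21 and -0.61 ± 0.21 for chow, high-fat diet and corticosterone. Leaving out chow control 2 gave -0.50 on chow, and leaving out corticosterone FMRKO 2 gave -0.94 with corticosterone.

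Gm13841, the copy of Rpl29, was higher in FMRKO fat. It had 2.73, 2.14, 3.36 and 2.84 CPM in chow FMRKO libraries, against 0.964, 1.81, 0.632 and 0.704 CPM in chow controls. Its high-fat diet levels were 2.32, 2.58, 1.81 and 2.95 CPM in FMRKO libraries, against 0.494, 0.618, 1.11 and 1.12 CPM in controls. With corticosterone it had 2.95, 1.15, 3.38 and 3.43 CPM in FMRKO libraries, against 0.824, 1.10, 1.32 and 1.16 CPM in controls. Corticosterone FMRKO 2, the FMRKO library with the most Rpl29, was the 1 FMRKO library within the control range of its condition, and chow control 2, the control library with the least Rpl29, had the highest control value. Of the counts of Gm13841 and Rpl29 together, the copy made up 0.581% to 4.57% in FMRKO libraries (median 2.95%) and 0.338% to 2.90% in controls (median 0.638%). The lowest FMRKO share was that of corticosterone FMRKO 2 (95% Wilson interval 0.397% to 0.849%) and the highest control share that of chow control 2 (2.26% to 3.71%). The other 11 FMRKO libraries had 1.98% to 4.57% and the other 11 controls 0.338% to 0.814%. A genotype difference of these shares is built in as well, since Rpl29 and Gm13841 were both chosen for it. The mean level of the copy in FMRKO libraries exceeded that in controls by 1.74, 1.58 and 1.62 CPM for chow, high-fat diet and corticosterone, and the difference of Rpl29 was -22.1, -64.5 and -65.2 CPM.

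**Figure D2:**
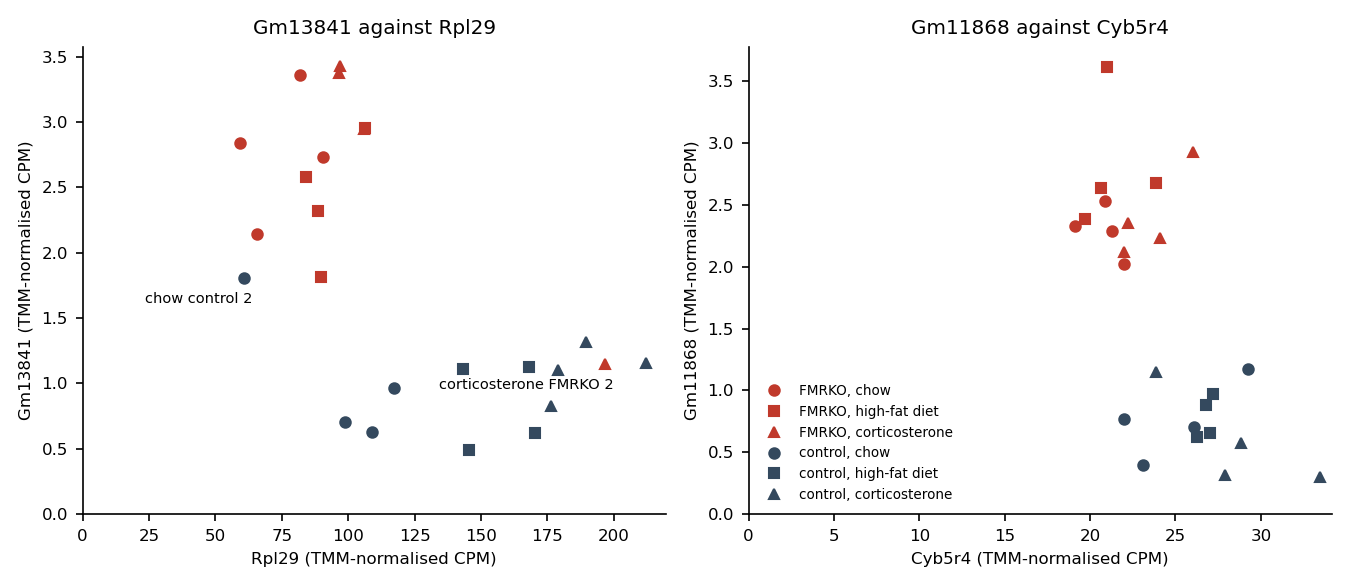
Each copy (vertical axis, TMM-normalised CPM) against its parent gene (horizontal axis, same unit) in the 24 libraries, with colour for genotype and marker shape for condition. For Gm13841 the library chow control 2 (1.81 CPM) lies next to the FMRKO libraries and corticosterone FMRKO 2 (1.15 CPM) among the controls, whereas for Gm11868 all 12 FMRKO libraries lie above all 12 controls.

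The table holds 20 processed copies of Rpl29 that match Gm13841 at 95% identity or more over at least 90% of its length, and 10 of them passed the filter. Of these 10, Gm13841 among them, 9 had a positive log2 fold change of FMRKO against control. Some of the positive values were within 1 standard error of 0, with 0.03 ± 0.26 for Gm13586, 0.16 ± 0.39 for Gm12704 and 0.26 ± 0.36 for Gm14036. Gm8210 on chromosome 1, which is identical to Gm13841 over its 483 bases, had 298 counts summed over FMRKO libraries and 56 over control libraries, a log2 fold change of 2.52 ± 0.53. Gm15454, also on chromosome 1, had 1.91 ± 0.58, with 102 counts over FMRKO and 26 over control libraries. Gm5561 went with the parent at -0.58 ± 0.17, with 460 counts over FMRKO and 683 over control libraries. Since reads of identical copies cannot be assigned, these values are not separate measurements of Gm13841.

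Ppm1m (ENSMUSG00000020253, 106194172 to 106199746, minus strand) codes for a metal-dependent serine/threonine phosphatase. It averaged 62.0 ± 6.05 CPM in FMRKO and 94.4 ± 24.2 CPM in control fat on chow, 63.9 ± 9 and 91.9 ± 12 CPM on the high-fat diet, and 65.9 ± 3.94 and 84.7 ± 6.76 CPM with corticosterone (SD, n = 4 in each group). The groups were separate in both treated conditions, and on chow the overlap came from control 2. The log2 fold changes were -0.61 ± 0.15, -0.52 ± 0.15 and -0.36 ± 0.15, and the chow value was -0.73 without chow control 2.

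Srprb (ENSMUSG00000032553, 103188032 to 103202137, minus strand) codes for the membrane-anchored subunit of the signal recognition particle receptor. It averaged 12.6 ± 1.16 CPM in FMRKO and 17.7 ± 2.75 CPM in control fat on chow, 16.7 ± 1.86 and 23.2 ± 2.18 CPM on the high-fat diet, and 20.5 ± 3.85 and 24.4 ± 1.01 CPM with corticosterone (SD, n = 4 in each group). All FMRKO libraries were below all controls in both diets, and with corticosterone the overlap came from FMRKO 2. Its log2 fold changes were -0.49 ± 0.13, -0.48 ± 0.13 and -0.25 ± 0.12, and the last was -0.41 without corticosterone FMRKO 2. Srprb shares 888 exonic bases with Gm20425 on the same strand, so its count is uncertain where reads of both were possible.

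Per length of transcript, the 10 genes span a wide range of levels. Rpl29 had a mean of 151.6 RPKM over the 24 libraries, Gsta4 22.4, Ppm1m 22.1, Lysmd2 7.97, Srprb 4.42, Gm13841 3.83, Zfp949 3.63, Cyb5r4 3.62, Tbx18 1.61 and Gm11868 1.10 RPKM. Gsta4 and Ppm1m changed places between the genotypes, with 31.1 RPKM of Gsta4 and 20.3 RPKM of Ppm1m in chow FMRKO fat, against 15.6 and 29.2 RPKM in chow control fat.

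The 8 chromosome 9 genes lie in a stretch, drawn around them, with a higher share of genotype differences than all tested genes. At an unadjusted p under 0.01, which 1.43% of all tested genes reached, 39 of 1073 tested genes of chromosome 9 were counted (3.63%), and 2.91% without the genes described here. The other 19 chromosomes had 0.205% to 2.5%, with a median of 1.21%. The highest was chromosome 16, which carries Adipoq, followed by chromosome 6 at 2.2%. Whether the share of chromosome 16 is related to Adipoq was not tested. Within chromosome 9 the share was 8.65% between 70 and 110 Mb (30 of 347 genes), 1.39% before 70 Mb (8 of 576) and 0.667% after 110 Mb (1 of 150). Without the genes described here 22 genes of the stretch remained, 6.49%. The edges at 70 and 110 Mb enclose the 8 genes, which were picked from this comparison, so these shares are partly built in. In the 10 Mb from 80 to 90 Mb, which hold Zfp949, Tbx18 and Cyb5r4, 11 of 52 genes were counted (21.2%), 3 higher and 8 lower in FMRKO fat. The rest of the stretch had 5% from 70 to 80 Mb, 5.88% from 90 to 100 Mb and 7.48% from 100 to 110 Mb. Outside it, the 10 Mb from 10 to 20 Mb had 6.25% (3 of 48 genes). Because neighbouring genes are not independent and the members were picked from this comparison, these shares describe the libraries and no test was made of them. Without high-fat diet control 4 the share was 6.07% on chromosome 9 and 3.53% elsewhere, and without the lymph node rich libraries 2.41% and 0.861%.

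**Figure D3:**
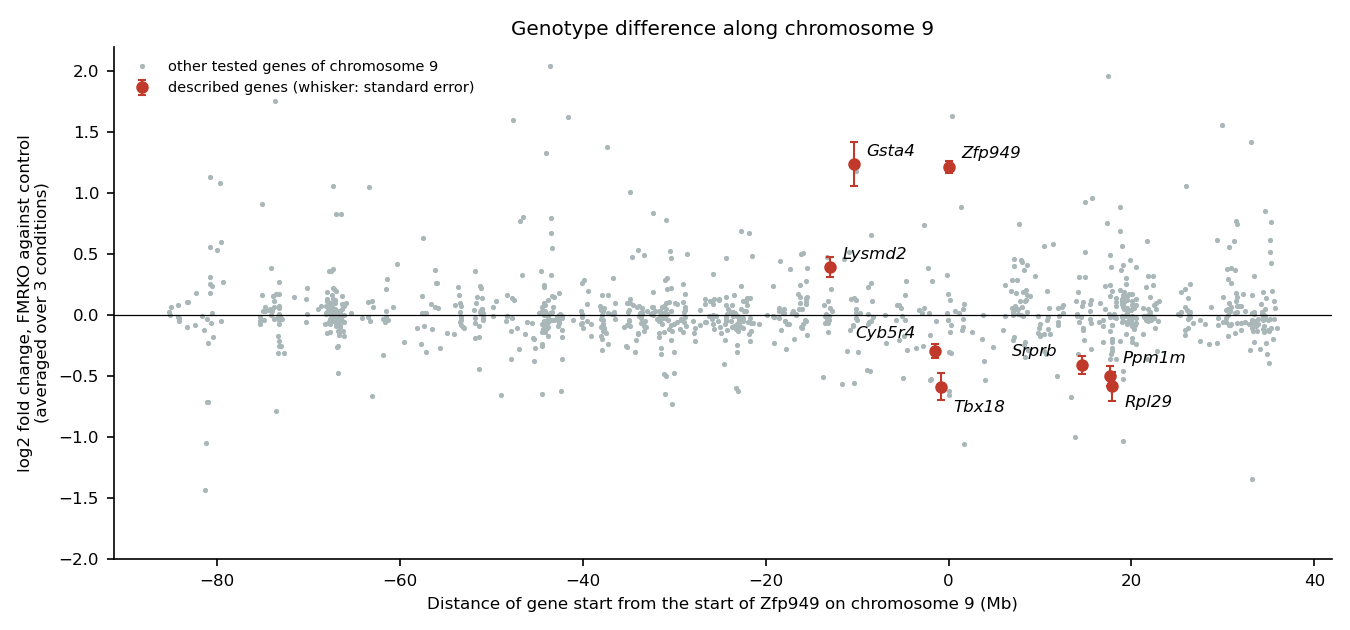
Log2 fold change of FMRKO against control, averaged over conditions, of the tested genes of chromosome 9 by the distance of their start from that of Zfp949 in Mb. The described genes (red, with standard errors) lie from 12.92 Mb before to 17.88 Mb after it, with Gsta4 and Lysmd2 above 0 on the left, Cyb5r4 and Tbx18 below 0 just before it and Srprb, Ppm1m and Rpl29 below 0 on the right, and 8 genes fall outside the plotted range of -2 to 2.2.

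**Figure D4:**
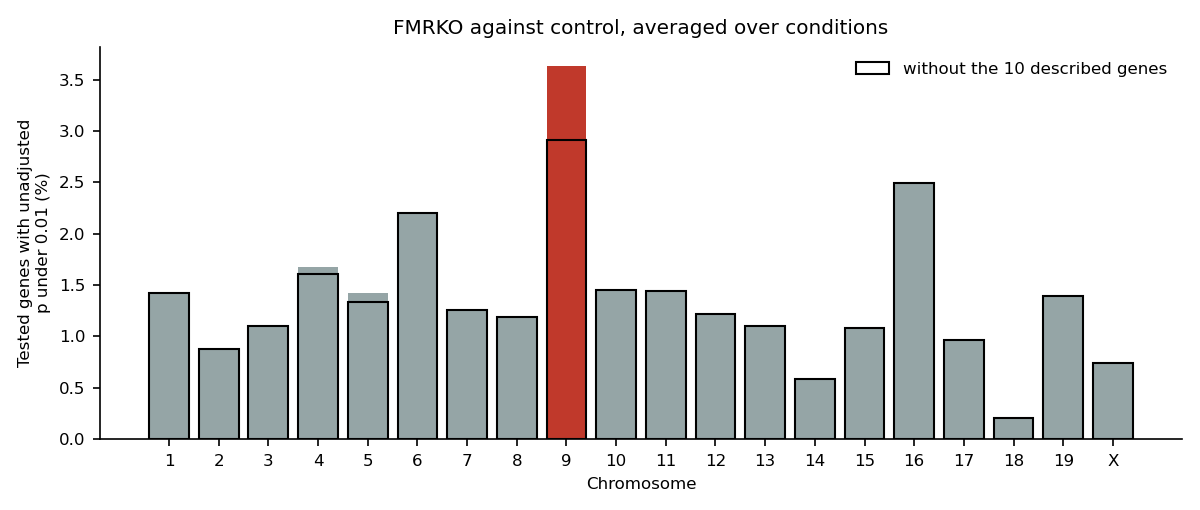
Percentage of tested genes of each chromosome with an unadjusted p under 0.01 for FMRKO against control, averaged over conditions, with outlines for the share without the 10 described genes. Chromosome 9 stands at 3.63% with and 2.91% without them, above the 2.5% of chromosome 16.

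Of the 22 other tested genes that start within 1 Mb of Zfp949, Tbx18 or Cyb5r4, 10 had a positive and 12 a negative log2 fold change. Their median was -0.04, and 0 passed the adjusted threshold, which 0.0355% of all tested genes passed. A count of 0 among so few genes does not show that they were unchanged. The values ran from -0.65 for Trim43a, a gene of the tripartite motif family, to 2.60 for the predicted gene Gm2396, both under 1 CPM. The larger differences included -0.62 for the transcript 9430037G07Rik and 1.64 for Bcl2a1a, a relative of Bcl2. Rwdd2a had -0.53 ± 0.17 and the transcript 9330159M07Rik had -0.31 ± 0.10. On the side of Zfp949 toward Tbx18 lie Snhg5, a host gene of small nucleolar RNAs (-0.04 ± 0.07), Syncrip, an RNA-binding protein (-0.04 ± 0.05), and Snx14, a sorting nexin (0.02 ± 0.06). Snhg5 starts 27 kb before Zfp949 and averaged 9.24 CPM in FMRKO and 9.51 CPM in control libraries. Me1, the NADP-dependent malic enzyme of fat synthesis, starts 440.6 kb before Cyb5r4 and averaged 377 CPM in FMRKO and 541 CPM in control libraries (-0.52 ± 0.14). Next to Gsta4, 16.1 kb before it, the transcript C920006O11Rik had -0.55 ± 0.11, opposite in sign to Gsta4, and on the other side Ddx43, a helicase gene under 1 CPM, had 1.18 ± 0.46, the sign of Gsta4. The neighbours of Ppm1m had -0.02 ± 0.05 (Wdr82) and 0.16 ± 0.11 (Twf2). Beside Srprb the nearer neighbour Trf, the transferrin gene, had -0.12 ± 0.15 and Rab6b had 0.08 ± 0.07. Beside Rpl29 Acy1 had 0.20 ± 0.10 and Dusp7 had -0.08 ± 0.09. Beside Lysmd2 the nearer neighbour Scg3 had 0.22 ± 0.16 and Tmod2 had 0.06 ± 0.08.

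Ordered by p of FMRKO against control within chromosome 9, the 8 genes held places 1 to 4, 6 and 9 to 11. Their high places follow from how they were chosen. Between them stood Plod2 (-0.53 ± 0.10), Cpne4, a calcium-dependent phospholipid-binding protein (3.84 ± 0.75), and C920006O11Rik. Just outside were 9430037G07Rik (-0.62 ± 0.13), which starts 47.3 kb after Zfp949, and Cdv3 (-0.20 ± 0.04), against 0.39 ± 0.08 for Lysmd2 just inside.

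The genes whose library-to-library pattern was closest were found by the root mean square difference of log2 CPM over 24 libraries, each gene centred on its mean. Closest to Zfp949 were Eif4a2 at 0.38, the kelch protein Klhl28 at 0.51 and the signalling ligand Wnt4 at 0.51, where Zfp949 itself varied by 0.65 about its mean. Closest to Gsta4 were Hyal1, a hyaluronidase, at 0.58, Eif4a2 at 0.62 and Bckdhb, a subunit of branched-chain keto acid dehydrogenase, at 0.62, against 0.78 for Gsta4 itself. Hyal1 and Bckdhb are also on chromosome 9. Closest to Tbx18 were Plod2 at 0.26, Nr3c2 at 0.29 and the ephrin receptor Ephb4 at 0.31, against 0.52 for Tbx18 itself. Genotype and condition are part of these patterns.

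Whether the genotype difference varied between conditions was tested, since the choice of genes did not use it. In each of the 3 tests of a difference between conditions 0 genes were called by edgeR at an adjusted p of 0.05 (0%), so 0 of the 10 were. At an unadjusted p under 0.05 there were 1939 genes (9.83%) for high-fat diet against chow, 1171 (5.94%) for corticosterone against chow and 636 (3.23%) for corticosterone against high-fat diet, and DESeq2 called 6, 4 and 1 genes. The difference of Zfp949 in FMRKO against control was smaller by 0.25 ± 0.12 on the high-fat diet than on chow and by 0.46 ± 0.12 with corticosterone than on chow (log2 scale, adjusted p = 0.498 and 0.450, edgeR quasi-likelihood test). For Tbx18 the deficit on chow exceeded that on the high-fat diet by 0.54 ± 0.27 and that with corticosterone by 0.67 ± 0.27 (adjusted p = 0.517 and 0.788). These values did not pass the threshold, which does not show that the genotype difference was equal in the 3 conditions.

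The conditions themselves were compared averaged over genotypes, where these genes were not picked. On the high-fat diet against chow, 3 of the 10 genes were called, with 39.8% of all tested genes called. Zfp949 fell by 0.45 ± 0.06 in log2 units (adjusted p = 4.41e-06, edgeR quasi-likelihood test), Srprb rose by 0.40 ± 0.09 (adjusted p = 0.00111) and Rpl29 rose by 0.51 ± 0.15 (adjusted p = 0.00869). The call on Rpl29 was lost when replicate number was a block (0.49, adjusted p = 0.0578). Tbx18 had -0.25 ± 0.14 (adjusted p = 0.151), and it passed without chow FMRKO 1 (-0.32, adjusted p = 0.0367).

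With corticosterone against chow, 6 of the 10 genes were called, with 57.7% of all tested genes called, so the share of the 10 is near that background. Zfp949 fell by 0.45 ± 0.06 (adjusted p = 2.29e-06, edgeR), as much as on the high-fat diet. Tbx18 fell by 0.77 ± 0.14 (adjusted p = 6.84e-05) and Lysmd2 by 0.34 ± 0.10 (adjusted p = 0.00643), where the median of all tested genes was -0.13. Rpl29 rose by 0.85 ± 0.15 (adjusted p = 5.20e-05), Srprb by 0.58 ± 0.09 (adjusted p = 1.23e-05) and Cyb5r4 by 0.18 ± 0.07 (adjusted p = 0.0327). The call on Cyb5r4 was lost with the block (0.19, adjusted p = 0.0949), without the 3 libraries rich in muscle transcripts (0.19, adjusted p = 0.0654), and without any 1 of 7 libraries (0.14 to 0.18, adjusted p = 0.0508 to 0.0911), which were chow FMRKO 3, chow control 1 and 4, corticosterone FMRKO 3 and 4, and corticosterone control 3 and 4.

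With corticosterone against the high-fat diet, 2 of the 10 genes were called, with 37.9% of all tested genes called. Tbx18 fell by 0.52 ± 0.14 (adjusted p = 0.00485, edgeR) and Lysmd2 by 0.44 ± 0.10 (adjusted p = 0.00177). Rpl29 had 0.35 ± 0.15 (adjusted p = 0.0658) and passed without any 1 of 10 libraries, and Srprb had 0.19 ± 0.09 (adjusted p = 0.103) and passed without any 1 of 8. Gm11868 and Cyb5r4 passed without corticosterone control 1 (-0.57 and 0.20, adjusted p = 0.0387 and 0.0330). Gsta4, Ppm1m, Gm11868 and Gm13841 passed in 0 of the 3 comparisons with all libraries, with values between -0.33 ± 0.24 and 0.28 ± 0.25. The 8 chow titles begin with a number that the other 16 titles lack, and if it marks a batch, that batch cannot be told apart from either treatment in the comparisons with chow.

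**Figure D5:**
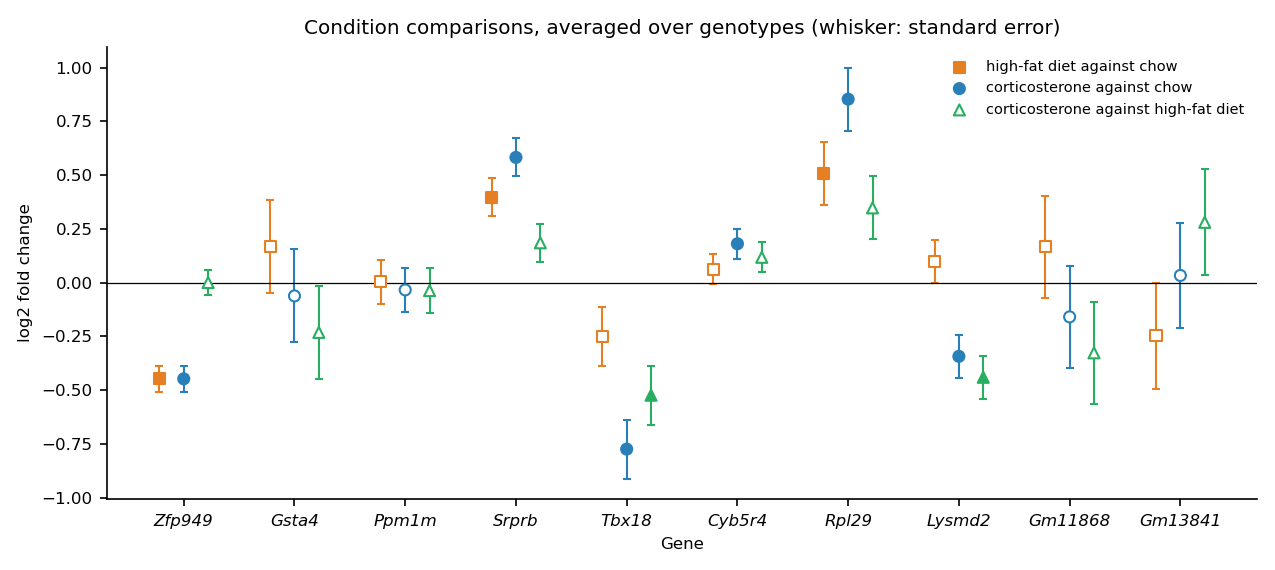
Log2 fold change with its standard error (vertical axis) of each of the 10 genes in 3 comparisons of conditions, averaged over genotypes, with filled markers where the adjusted p was under 0.05. Zfp949 lay at -0.45 in both comparisons with chow, Rpl29 and Srprb above 0 and Tbx18 at -0.77 with corticosterone.

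The families of these genes were counted in the same comparisons, beside the shares of all tested genes called for high-fat diet against chow (39.8%) and corticosterone against chow (57.7%). Apart from Gsta4, 0 of 21 tested glutathione transferases were called between FMRKO and control, and the median of the family was -0.02 over 22 genes. Gsta4 did not pass between conditions, where the family had 6 higher and 3 lower on the high-fat diet against chow and 12 higher and 2 lower with corticosterone against chow. These are 40.9% and 63.6% of the family, near the shares of all tested genes. The medians were 0.16 and 0.44, against -0.02 and -0.13 over all tested genes. Gsta3, an alpha-class relative, rose by 2.23 ± 0.27 with corticosterone (adjusted p = 6.19e-07, edgeR) and had -0.04 ± 0.21 between the genotypes. The microsomal transferase Mgst3 rose by 0.70 ± 0.16 on the high-fat diet (adjusted p = 0.00126) and by 1.49 ± 0.16 with corticosterone (adjusted p = 1.76e-07).

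Apart from Srprb, 0 of 14 tested genes of the signal recognition particle, its receptor and the translocon were called between the genotypes. Of all 15, the list had 10 higher and 1 lower on the high-fat diet against chow, and 13 higher and 1 lower with corticosterone, with medians of 0.33 and 0.28 against -0.02 and -0.13 over all tested genes. The called share was 73.3% and 93.3%. Sec61b, a translocon subunit, rose by 0.61 ± 0.08 on the high-fat diet and by 0.54 ± 0.08 with corticosterone, and Srp9, which binds the RNA of the particle, by 0.56 ± 0.06 and 0.49 ± 0.06. Srpr, the partner of Srprb in the receptor, had -0.01 ± 0.05 between the genotypes.

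Of 46 tested proteins of the large ribosomal subunit, 0 were called between the genotypes, with a median of 0.06, and Rpl29 had -0.58 ± 0.12. On the high-fat diet 21 were higher and 0 lower against chow, and with corticosterone 27 were higher and 0 lower, with medians of 0.23 and 0.30. The called shares, 45.7% and 58.7%, were near those of all tested genes. Among those called, Rpl29 changed most with corticosterone, followed by Rpl41 (0.73 ± 0.07). Both comparisons include Rpl29 levels that its processed copies may share.

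Apart from Ppm1m, 0 of 16 tested phosphatases of the PPM family were called between the genotypes. With Ppm1m, the family of 17 had 2 higher and 7 lower on the high-fat diet and 2 higher and 8 lower with corticosterone against chow, which is 52.9% and 58.8% of it, and Ppm1m was among the genes that did not pass. Ppm1k, the phosphatase of branched-chain keto acid dehydrogenase, fell by 1.15 ± 0.10 on the high-fat diet (adjusted p = 2.20e-08, edgeR).

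Of 9 tested T-box factors, 0 were called between the genotypes. With corticosterone against chow 7 were lower and 0 higher (77.8% called), Tbx18 among them, with a median of -0.77. Tbx2 fell by 1.20 ± 0.17 and Tbx3, known from mesenchymal cells, by 0.91 ± 0.14, whereas Eomes and Tbx21 (-2.73 ± 0.78 and -1.20 ± 0.26) are factors of lymphocytes. Lymph node markers were also lower with corticosterone, 10 of 16 called (62.5%, near the share of all tested genes), with a median of -2.47, and their part in these values was not tested.

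Of 9 tested genes of cytochrome b5 and its reductases, 0 were called between the genotypes, 5 were higher on the high-fat diet than on chow, 6 were higher with corticosterone than on chow, and 0 were lower in either comparison, so that 55.6% and 66.7% were called. Cyb5r3, the main reductase of the family, rose by 1.08 ± 0.09 and 0.96 ± 0.09, against 0.06 ± 0.07 and 0.18 ± 0.07 for Cyb5r4. Of 6 tested LysM domain genes, 0 were called between the genotypes, 0 were called on the high-fat diet against chow, and with corticosterone against chow Lysmd2 and Ncoa7 fell and Lysmd3 rose.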

How the data were processed

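Total RNA after ribosomal RNA depletion was sequenced from 24 inguinal white fat libraries. The authors deposited counts of reads per gene, and the submitters' processing notes name STAR 2.5.1a, featureCounts 1.4.6p-5, Subread and GRCm38. Annotation release, strand setting and handling of multi-mapping reads are not given in the sources used. RPKM values are those the authors deposited, checked against counts and gene lengths, and were used only to order levels per length.

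Counts were tested with edgeR 4.0.16 (limma 3.58.1, R 4.3.3): filterByExpr with a minimum count of 10, TMM scaling, 1 mean per group, quasi-likelihood test with 18 residual degrees of freedom, two-sided p adjusted by Benjamini-Hochberg over all 19717 tested genes, threshold 0.05. This test gave all adjusted p-values except those credited to DESeq2. The script was tested on simulated data. CPM are TMM-normalised. Alternatives were DESeq2 1.42.0, size factors of the DESeq2 type, no filter, a replicate block, leaving out each library, and leaving out libraries rich in lymph node or muscle transcripts. Size factors moved the median of all genes by less than 0.1 in every comparison.

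Same-numbered FMRKO and control libraries deviated together on the high-fat diet (correlation across genes 0.20 to 0.72) and not on chow (-0.28 to 0.11) or with corticosterone (-0.04 to 0.08). Parents and close copies were found among GENCODE M21 transcripts with BLAST+ 2.17.0+. Identities and base differences of the 2 copies came from a pairwise alignment to the coding sequence of the parent (Biopython PairwiseAligner, global, end gaps free). The genes, gene lists and tests were chosen with earlier results of these data known. The genes named are the 10 described, up to 4 called genes of each family by size, neighbours within 1 Mb of Zfp949, Tbx18 and Cyb5r4 or next to the others, the 3 genes closest in pattern to Zfp949, Gsta4 and Tbx18, and close copies. Cpne4, 9430037G07Rik, Cdv3, the copies of Rpl29, Srpr, Plod2 and family members outside this rule were chosen after their values were seen. Copy shares carry Wilson intervals that cover counting error only and are no test of genotype.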

Additional observations from a re-analysis of the deposited data

Results flagged for a closer look

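Of 60 sets of 4 libraries (10 genes in 6 groups), 4 held a library whose gap to its nearest neighbour took most of the range of the group, where chance gives about 1 in 20 sets, or 3. Rpl29 was at 196.7 CPM in corticosterone FMRKO 2, against 96.4, 96.8 and 106 CPM in the other FMRKO libraries of that condition. Srprb was at 26.2 CPM in the same library, against 18.1, 18.4 and 19.1 CPM. Gsta4 was at 14.9 CPM in corticosterone control 1, against 9.97, 9.98 and 10.1 CPM in the other controls. Lysmd2 was at 7.92 CPM in that same control, against 6.35, 6.46 and 6.56 CPM.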

How the results depend on the processing

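FMRKO against control averaged over conditions called 7 genes, 34 with DESeq2, 4 without the lymph node rich libraries and 5 to 10 with 1 library left out. With the replicate block 7 genes were called, of which 4 were shared, and Ppm1m, Srprb and Gm13841 were lost. The same genes were lost without the lymph node rich libraries. Ppm1m and Srprb were also lost without the muscle rich libraries and with some single libraries left out. Between conditions, where pairing by number was not shown, the block lost the calls on Rpl29 for high-fat diet against chow (0.49, adjusted p = 0.0578) and Cyb5r4 for corticosterone against chow (0.19, adjusted p = 0.0949) and changed no other call on the 10 genes. DESeq2 called 6, 4 and 1 genes in the differences of the FMRKO effect between high-fat diet and chow, corticosterone and chow, and corticosterone and high-fat diet, against 0 each in edgeR, which stayed 0 with any library left out. Members called for corticosterone against high-fat diet were 2, and 2 to 5 with 1 library left out.

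Some values near 0 changed sign. Zfp949 for corticosterone against high-fat diet was -0.0036 with the replicate block and -0.019 to 0.069 with 1 library left out. Ppm1m for high-fat diet against chow was -4.7e-05 with DESeq2, -2.5e-05 with DESeq2-type size factors, -0.029 with no filter, -0.035 without the muscle rich libraries and -0.10 to 0.063 with 1 library left out. Ppm1m for corticosterone against high-fat diet was 0.012 with no filter, 0.0077 without the muscle rich libraries and -0.036 to 0.043 with 1 library left out, and against chow -0.099 to 0.028. Gm13841 for corticosterone against chow was -0.16 with the replicate block and -0.050 to 0.26 with 1 library left out. Gsta4 in that comparison ran from -0.13 to 0.11, and Cyb5r4 for high-fat diet against chow from -0.0021 to 0.084. Rpl29 for corticosterone against high-fat diet passed with DESeq2 (0.36, adjusted p = 0.0436) and with no filter (0.39, adjusted p = 0.0468). The cause of these changes was not tested.

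Chromosome 9 genes with an unadjusted p under 0.01 were 3.63%, 2.41% without the lymph node rich libraries (0.861% on other chromosomes) and 2.66% to 6.07% with 1 library left out. The ratio of the share on chromosome 9 to that elsewhere ran from 1.72 to 3.97 over all settings. With DESeq2 the share off chromosome 9 was 2.24%. Counts of 7 to 39 limit Gm11868 in controls.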
